A study of Rattus norvegicus with 12 samples.

Results

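The 10 genes described here encode proteins that coat or enlarge lipid droplets and lipases that empty them. They were chosen by name and with earlier results of these data known: the perilipins Plin1, Plin2, Plin3, Plin4 and Plin5, the CIDE genes Cidea and Cidec, and the lipase genes Pnpla2, Lipe and Mgll. All 10 were found, of 19730 genes in the deposited table, and the rule itself used names alone. Ovarian RNA of wild type Sprague Dawley rats at post natal week 15 had been sequenced in 12 libraries, 4 in each of 3 groups. The control group was untreated and received standard food. The PCOS group received letrozole, an inhibitor of the aromatase that makes estrogen from androgen, for 30 days together with a high-fat diet. The PCOS-MV group received the same letrozole and high-fat diet and was then given mogroside V, a sweet triterpene glycoside of monk fruit, by gavage for 30 days. Per the study's methods, the rats of both treated groups were those that stayed in metestrus and diestrus on vaginal smears, and the treatment of the PCOS group while the PCOS-MV group received mogroside V is not given in the sources used here. Letrozole and the diet therefore cannot be told apart in these groups. Whole ovaries were used, and in bulk tissue fewer cells of a type and less RNA per cell cannot be told apart.

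Lipid droplets are stores of neutral lipid wrapped in a phospholipid monolayer. In steroid-making cells of the ovary, above all in the corpus luteum, they hold cholesteryl esters that feed steroid synthesis, and in adipocytes they hold triacylglycerol. Perilipins cover the surface and control the access of lipases. Plin1 is the perilipin of adipocytes, Plin2 and Plin3 are made in most tissues, Plin4 is found mainly in fat, and Plin5 in tissues that burn fatty acids. CIDE proteins let a droplet grow by passing lipid from a neighbouring droplet. Stored triacylglycerol is cut in steps, first by the lipase encoded by Pnpla2 (ATGL), then by that of Lipe (hormone-sensitive lipase, which also cuts cholesteryl esters) and last by that of Mgll (monoacylglycerol lipase).

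The promoters of 3 genes are printed because Plin2 and Mgll had the smallest adjusted p of the 10 genes in PCOS vs Control and Plin3 was the perilipin that moved the other way. They were taken from RefSeq's GRCr8 assembly, from 250 bases before to 50 bases after a gene's start, and 9 of the 10 genes had an entry. Capitals mark the letters CACGTG, an E-box, which reads the same on both strands and holds the core ACGTG of the hypoxia response element on each strand. The table lists 2 starts of Plin2, and the window shown is the one that holds these letters (chr5:106228969-106229268, minus strand), the Mgll window is on the plus strand (chr4:122749186-122749485), and the Plin3 window (chr9:1210163-1210462, minus strand) holds none.
Plin2: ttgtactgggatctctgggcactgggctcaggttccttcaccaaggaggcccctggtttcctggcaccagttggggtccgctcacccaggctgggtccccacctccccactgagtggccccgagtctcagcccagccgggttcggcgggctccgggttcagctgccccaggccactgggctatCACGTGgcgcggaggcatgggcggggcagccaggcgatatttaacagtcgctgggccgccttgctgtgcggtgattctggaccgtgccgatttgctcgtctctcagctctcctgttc
Mgll: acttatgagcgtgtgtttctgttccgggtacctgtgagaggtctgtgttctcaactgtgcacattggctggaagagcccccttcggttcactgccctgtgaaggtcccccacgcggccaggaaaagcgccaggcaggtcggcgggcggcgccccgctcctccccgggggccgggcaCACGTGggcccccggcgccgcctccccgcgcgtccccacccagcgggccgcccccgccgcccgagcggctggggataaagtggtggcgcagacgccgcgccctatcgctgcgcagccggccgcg
Plin3: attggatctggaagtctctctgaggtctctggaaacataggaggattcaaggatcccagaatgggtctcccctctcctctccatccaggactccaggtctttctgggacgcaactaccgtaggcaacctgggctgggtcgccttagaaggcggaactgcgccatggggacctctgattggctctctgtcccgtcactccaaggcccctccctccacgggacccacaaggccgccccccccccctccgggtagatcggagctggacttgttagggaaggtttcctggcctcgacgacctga
In Plin2 the capitals begin 67 bases before the start and in Mgll 74 bases before it. ACGTG was found on either strand in 2 of the 9 genes and in 19.3% of the 33469 promoters of that length, and CACGTG in the same 2 genes and in 6.42% of promoters. The GC box GGGCGG was found in 7 of the 9 genes and in 33.1% of all promoters. No member's window held the half-site AGGTCA repeated with 1 base between, which PPAR and its partner bind (0.0538% of promoters), CAAGGTCA, the half-site of NR5A receptors (1.52%), TGACGTCA, the cyclic AMP response element (1.83%), or TATAAA, the TATA box (14.2%). These matches describe letters in a window and not binding.

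Values are FPKM, fragments scaled to transcript length and to the mapped fragments of the library, so levels can be set side by side between genes. Summed FPKM was between 339830 and 373758 per library. The file holds no counts. Steps between the low values of genes with 1 transcript placed the depth at about 30200000 to 36900000 fragments per library, but only 25.5% to 29.2% of these values lay on whole steps, where 4% would by chance, so that this depth is rough. Groups were compared in pairs with limma on log2(FPKM + 1) over 13430 genes whose mean reached 1 FPKM, and a gene was called at an adjusted p under 0.05. This filter kept 8 of the 10 genes, of which Cidec (mean 1.09 FPKM) passed only through the control group, where it was high. Plin1 and Plin5, with means of 0.815 and 0.783 FPKM over the 12 libraries, did not pass it. The PCOS libraries enter both PCOS vs Control and the comparison of PCOS-MV with PCOS, so values of these comparisons are set side by side and are not independent of each other.

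**Figure D1:**
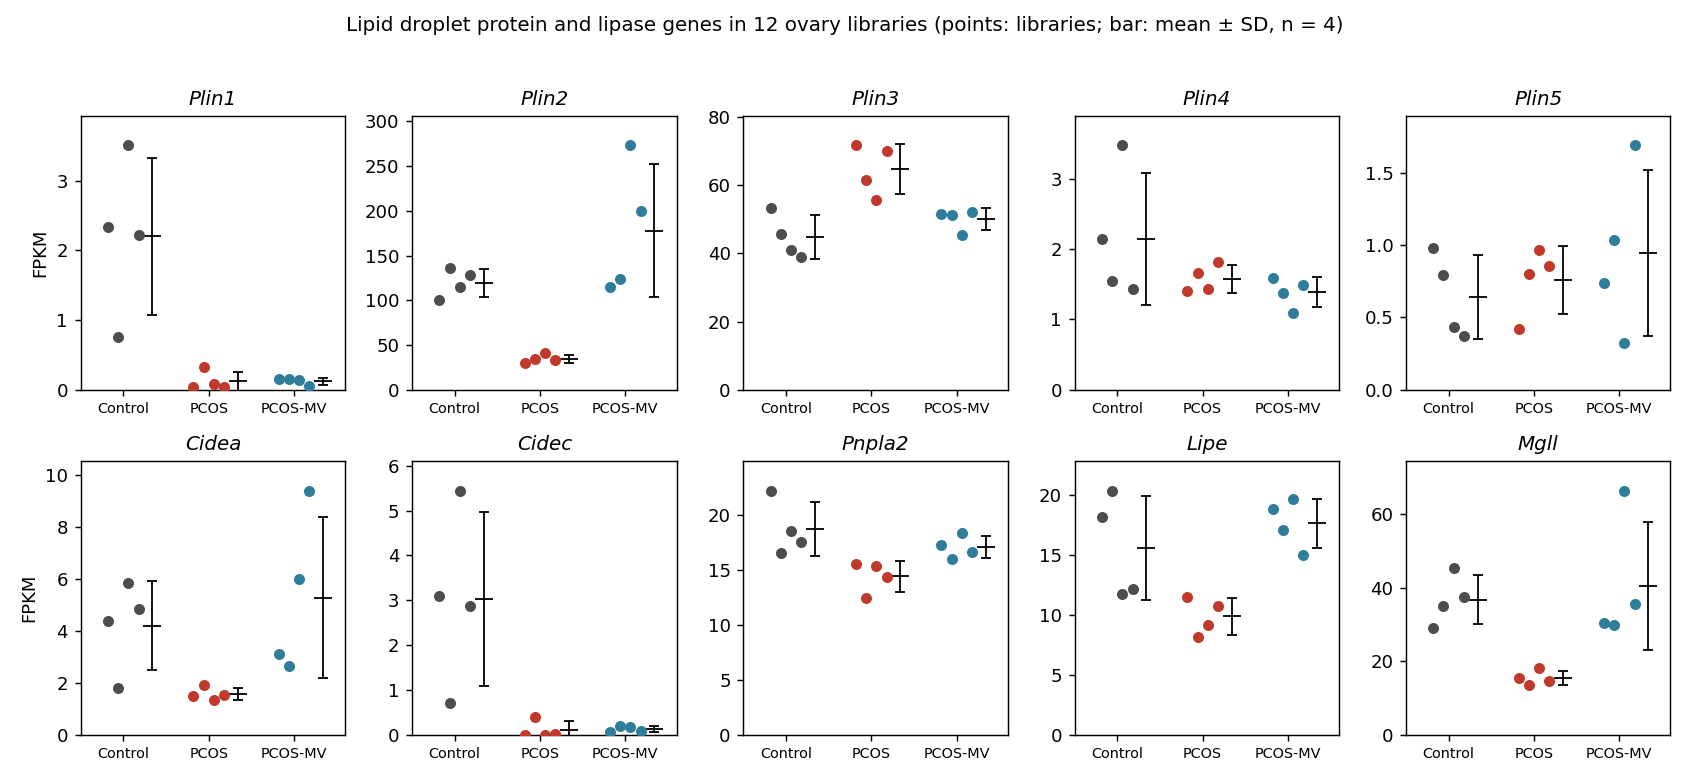
FPKM of each of the 10 genes (vertical axes, each from 0 on its own scale) in the 4 libraries of each group, with the mean and SD beside the points. Plin2 lies between 29.6 and 41.0 in the PCOS group and at or above 99.98 in all other libraries, Plin3 lies highest in the PCOS group, and Plin1 and Cidec are near 0 in both treated groups.

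In PCOS vs Control, 6 of the 8 genes tested fell and 1 rose, where limma called 27.4% of all tested genes, 15.6% lower and 11.9% higher. Plin2, Mgll, Cidec, Cidea, Lipe and Pnpla2 were lower in the PCOS group, Plin3 was higher, and Plin4 did not pass the test. The median difference in log2(FPKM + 1) over the 8 genes was -0.77, beside -0.03 over all tested genes. Both the count of 6 and this median include Cidec, which passed the filter only through its control values. In PCOS-MV vs PCOS, 4 of the 8 rose (Plin2, Mgll, Cidea and Lipe) and 1 fell (Plin3), where 25.7% of all tested genes were called, 14.3% higher and 11.4% lower. There the median difference was 0.51, beside 0.03 over all genes. In PCOS-MV vs Control, limma called 0 of the 8, and 1 gene of all 13430 (0.00745%). At an unadjusted p under 0.05 that comparison held 1142 genes, with Cidec as its only member.

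**Figure D2:**
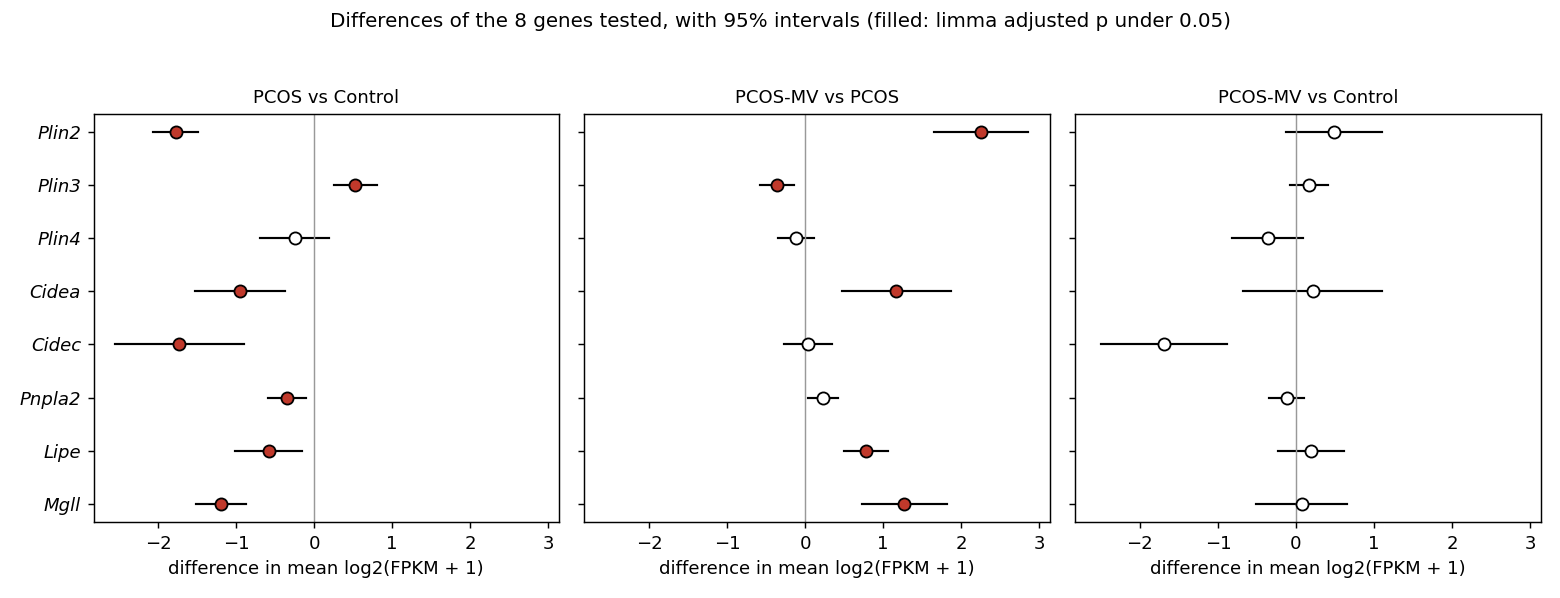
Difference in mean log2(FPKM + 1) (horizontal axes) of the 8 genes tested in the 3 comparisons, with 95% intervals from limma and filled points where the adjusted p was under 0.05. The points of Plin2, Mgll and Lipe lie left of 0 in PCOS vs Control but right of 0 in PCOS-MV vs PCOS, those of Plin3 lie on the opposite sides, and Cidec lies far left of 0 in both comparisons with Control.

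Plin2, which coats the droplets of most cells and shields them from lipases, was the most abundant of the 10 genes in the control and PCOS-MV groups. In the control group its FPKM was 99.98, 135.6, 115.1 and 128.5. In the PCOS group it was 29.6, 33.9, 41.0 and 32.9. In the PCOS-MV group it was 114.4, 124.0, 273.1 and 199.9. All PCOS libraries lay below all libraries of the other groups, and the PCOS-MV libraries were spread widest. The mean was 3.49-fold lower in the PCOS than in the control group (log2 difference -1.77, SE 0.125, adjusted p = 3.52e-05 by limma). It was 5.18-fold higher in the PCOS-MV than in the PCOS group (2.26, SE 0.265, adjusted p = 0.000728 by limma). Between PCOS-MV and Control the difference of 0.48 had an interval from -0.13 to 1.10 and did not pass the test (adjusted p = 0.635 by limma). Both calls of Plin2 were kept with each library left out in turn.

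Among all tested genes, the 3 whose standardized profile over the 12 libraries was most like that of Plin2 were Myh9l1 (root mean square difference 0.193), RGD1305464 (0.200) and Mxra8 (0.206). Their mean FPKM was 72.7, 46.3 and 42.5 in the PCOS group, beside 132.6, 109.3 and 133.3 in the control group.

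Plin3, a cytosolic perilipin that moves onto small, newly made droplets, went the other way. In the control group it measured 53.4, 45.8, 41.0 and 39.0 FPKM. The PCOS libraries had 71.7, 61.5, 55.8 and 69.97 FPKM, all above the control libraries. The PCOS-MV libraries had 51.7, 51.3, 45.4 and 52.3 FPKM, all below the PCOS libraries and within the range of the controls. Plin3 rose by 0.53 (SE 0.120, adjusted p = 0.0122 by limma) in PCOS vs Control, whereas it fell by 0.36 (SE 0.0956, adjusted p = 0.0262) in PCOS-MV vs PCOS. The first call was kept with each library left out. The second was lost without PCOS replicate 1, 2 or 4 or PCOS-MV replicate 2 or 3, with adjusted p up to 0.0766.

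Within a library, the summed FPKM of the 5 perilipins was thus made up differently. Plin2 made up 62.9% to 74.9% of this sum in the control libraries, 28.7% to 41.3% in the PCOS libraries and 67.9% to 85.3% in the PCOS-MV libraries. Plin3 made up 22.7% to 33.6%, 56.2% to 69.5% and 14.2% to 30.7%, so that in every PCOS library Plin3 had the larger share, and in every other library Plin2 did. The sum itself had a median of 167.5 FPKM in the control libraries, 101.2 in the PCOS libraries and 216.6 in the PCOS-MV libraries. Plin1, Plin4 and Plin5 were minor parts, with at most 2.15%, 2.12% and 0.97% in any library.

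**Figure D3:**
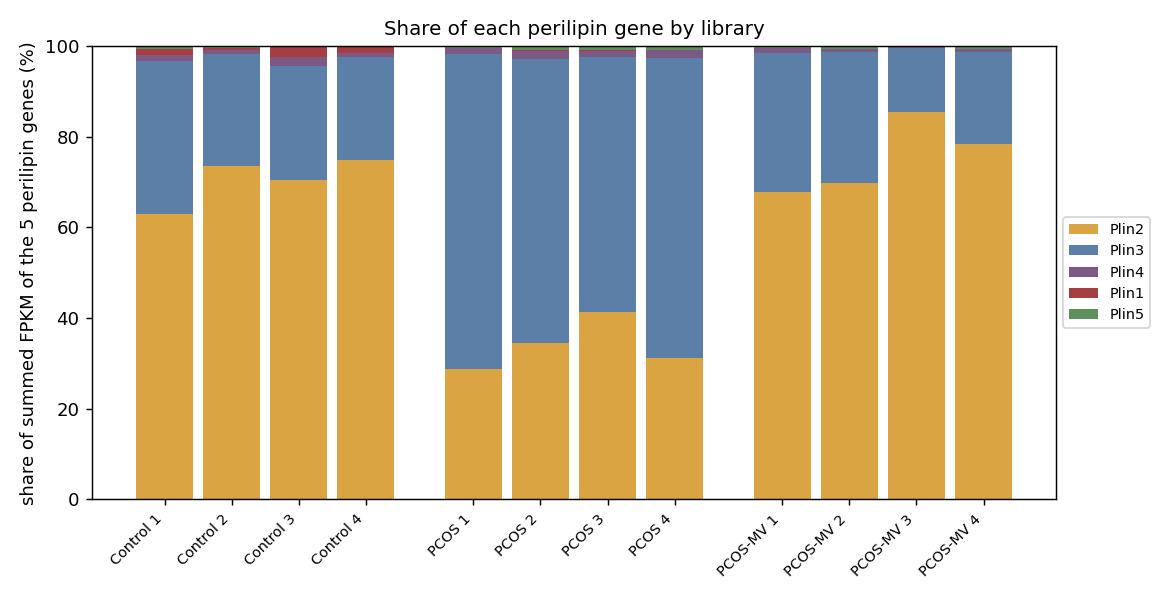
Share of each perilipin gene in the summed FPKM of the 5 perilipins (vertical axis, percent) for each of the 12 libraries, as stacked bars. Plin2 holds 28.7% to 41.3% of the bar in the 4 PCOS libraries and at least 62.9% in the other 8.

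Plin4 and Plin5 lie next to each other on chromosome 9 of the authors' coordinates, whose build is not named (10963723 to 10971277 and 10956056 to 10961782), and Plin3 lies on the same chromosome (10773901 to 10781109). Plin4 measured 1.43 to 3.47 FPKM in the control libraries, 1.40 to 1.82 in the PCOS libraries and 1.09 to 1.59 in the PCOS-MV libraries. The groups overlapped in all 3 comparisons, and with intervals of -0.69 to 0.19 (PCOS vs Control) and -0.34 to 0.12 (PCOS-MV vs PCOS) no difference was called. Plin5 measured 0.37 to 0.98, 0.42 to 0.97 and 0.32 to 1.69 FPKM, or about 23 to 114 fragments per library, and its groups overlapped in all comparisons (exact two-sided permutation p = 0.6 in PCOS vs Control, 0.743 in PCOS-MV vs PCOS and 0.514 in PCOS-MV vs Control).

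Plin1, the perilipin that holds lipases off the fat droplet until it is phosphorylated, was almost absent from the treated groups. It measured 2.33, 0.75, 3.51 and 2.22 FPKM in the control libraries. In the PCOS libraries it measured 0.037, 0.323, 0.087 and 0.036 FPKM, and in the PCOS-MV libraries 0.151, 0.161, 0.135 and 0.049 FPKM. Every control library lay above every treated library, while values of PCOS and PCOS-MV libraries overlapped. Plin1 was not among the tested genes. Of those, 31.0% had no overlap of PCOS with control libraries, so this was common. For PCOS-MV with control libraries the share was 5.1%. The exact two-sided permutation p was 0.0286, the smallest that 4 against 4 libraries can give, in each comparison with Control, and 0.943 in PCOS-MV vs PCOS. With no filter on low values, limma gave a difference of -1.44 (adjusted p = 0.0102) in PCOS vs Control but of -1.43 (adjusted p = 0.448) in PCOS-MV vs Control. The values of the treated groups stood for about 2.5 to 32.6 fragments.

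Cidec, which drives the growth of large droplets in fat cells, showed the same order of groups. In the control group it measured 3.11, 0.71, 5.45 and 2.87 FPKM. In the PCOS group it was listed at 0 in 2 libraries and at 0.407 and 0.027 FPKM in replicates 2 and 4. In the PCOS-MV group it measured 0.062, 0.195, 0.166 and 0.086 FPKM. All treated libraries lay below all control libraries. Cidec fell by 1.73 (SE 0.362, adjusted p = 0.00832 by limma) in PCOS vs Control, and this call was kept with each library left out. Since Cidec entered the test through its control values alone, it adds nothing to the count of genes that fell. PCOS-MV vs PCOS gave 0.04 (interval -0.27 to 0.34). PCOS-MV vs Control gave -1.69 (interval -2.50 to -0.88), a difference of nearly the same size as that of the PCOS group, but at an adjusted p of 0.453 by limma it was not called.

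Most markers of adipocytes moved with Plin1 and Cidec. Of 9 markers, 8 were in the file, and their summed FPKM was 40.8 to 151 in the control libraries, 18.3 to 36.3 in the PCOS libraries and 19.6 to 52.6 in the PCOS-MV libraries. The 5 tested were all called lower in PCOS vs Control, where limma called 15.6% of all tested genes lower. Thrsp, with means of 5.20 FPKM (Control), 0.21 (PCOS) and 0.10 (PCOS-MV), passed the filter only through the control group and adds nothing to this count. Adipoq, the adiponectin gene, fell by 2.29 (adjusted p = 0.0111 by limma). In PCOS-MV vs PCOS 1 of the 5 rose and 0 fell, where limma called 25.7% of all tested genes. This was Fabp4, which encodes a fatty acid carrier also made by endothelium and macrophages, with means of 18.0 FPKM (Control), 2.15 (PCOS) and 19.7 (PCOS-MV). The 5 highest libraries were in the same order for Plin1, Cidec and Adipoq, namely Control replicates 3, 1, 4 and 2 and PCOS replicate 2. The marker sum had another order, since PCOS-MV replicates 2 and 3 (52.6 and 49.7 FPKM) lay above Control replicate 2 (40.8 FPKM). Lep and Retn, which encode leptin and resistin, reached at most 0.175 and 0.050 FPKM in a treated library and were listed at 0 in 2 and 4 of these. Adipoq was not listed at 0 in any library. The part of adipocytes in the fall of Plin1 and Cidec was not tested. Without Control replicates 1 and 3, which had the highest marker sums, Cidec still fell (-1.23, adjusted p = 0.0360 by limma, the highest of its 14 alternatives, whose lowest was 0.000821). The count of the 8 genes called lower then went from 6 to 3 (Plin2, Mgll and Cidec, the last tested only through its control values).

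Cidea, a CIDE gene of brown fat and of lipid-secreting glands, was lower in the PCOS group like Cidec but differed from it in the PCOS-MV group. It measured 4.36, 1.79, 5.83 and 4.84 FPKM in the control group, where replicate 2 lay among the PCOS values. In the PCOS group it measured 1.49, 1.90, 1.36 and 1.52 FPKM, or about 22 to 36 fragments. In the PCOS-MV group it measured 3.11, 2.64, 5.99 and 9.40 FPKM, all above the PCOS group. Cidea fell by 0.95 (SE 0.255, adjusted p = 0.0244 by limma) in PCOS vs Control, whereas it rose by 1.17 (SE 0.306, adjusted p = 0.0241) in PCOS-MV vs PCOS. The first call was lost without Control replicate 1 or 4 or PCOS replicate 1, 3 or 4 (adjusted p up to 0.0647), and also without Control replicates 1 and 3 together (-0.66, adjusted p = 0.130; the lowest over its 14 alternatives was 0.000701). The second was lost without PCOS replicate 1, 3 or 4 or PCOS-MV replicate 3 (adjusted p up to 0.0623). The highest Cidea value, in PCOS-MV replicate 4, stood beside a summed adipocyte marker level of 26.1 FPKM, below that of every control library. The next highest, in PCOS-MV replicate 3, stood beside 49.7 FPKM, above the 40.8 FPKM of Control replicate 2.

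**Figure D4:**
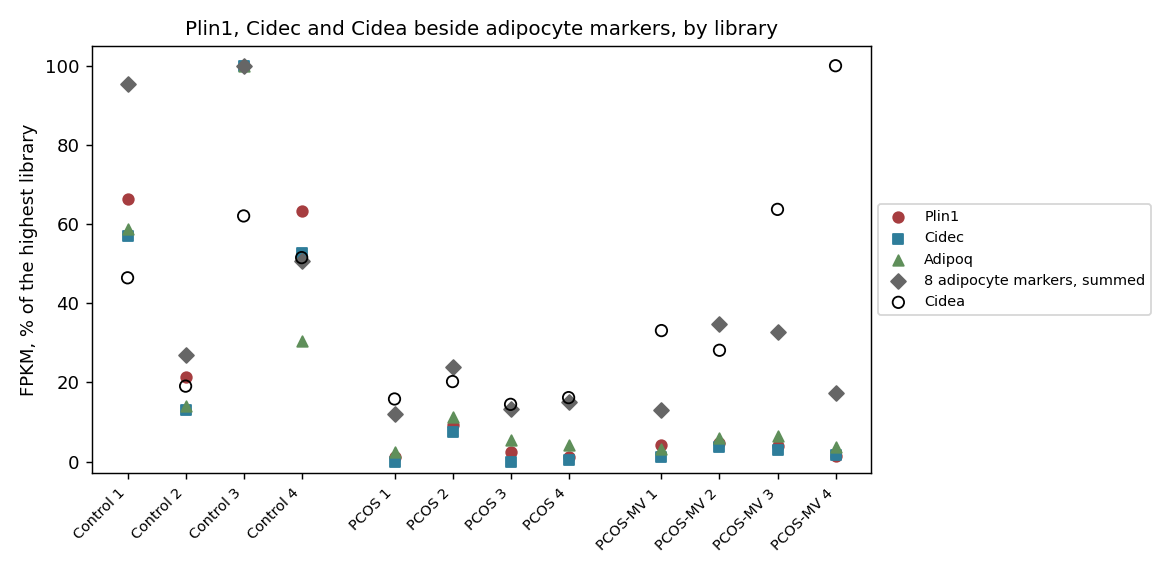
FPKM of Plin1, Cidec, Cidea, Adipoq and the 8 adipocyte markers summed, each as percent of its highest library (vertical axis), for the 12 libraries. Plin1, Cidec and Adipoq are highest in Control replicate 3 and low in all treated libraries, and Cidea is highest in PCOS-MV replicate 4.

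Mgll, whose product frees the last fatty acid and glycerol and also breaks down the endocannabinoid 2-arachidonoylglycerol, changed the most of the lipase genes. Control libraries had 29.1, 35.1, 45.3 and 37.5 FPKM. PCOS libraries had 15.4, 13.5, 18.1 and 14.7 FPKM, and PCOS-MV libraries 30.3, 30.0, 66.4 and 35.5 FPKM. The PCOS group lay below both others without overlap, and PCOS-MV replicate 3 lay far above the rest of its group. Mgll fell by 1.19 (SE 0.139, adjusted p = 0.000432 by limma) in PCOS vs Control, whereas it rose by 1.27 (SE 0.239, adjusted p = 0.00624) in PCOS-MV vs PCOS. Both calls were kept with each library left out. PCOS-MV vs Control gave 0.07 (interval -0.51 to 0.66).

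Lipe, the lipase gene whose product is switched on by protein kinase A, measured 18.2, 20.4, 11.7 and 12.1 FPKM in the control group. The PCOS libraries had 11.5, 8.12, 9.13 and 10.7 FPKM, and the PCOS-MV libraries 18.8, 17.1, 19.7 and 15.0 FPKM. PCOS values lay below both other groups, but only just below the 2 lowest controls. Lipe fell by 0.58 (SE 0.188, adjusted p = 0.0491 by limma) in PCOS vs Control, at the edge of the threshold, and this call was lost in 6 of 8 fits with 1 library left out (all but those without Control replicate 3 or 4; adjusted p up to 0.124). It rose by 0.78 (SE 0.123, adjusted p = 0.00278) in PCOS-MV vs PCOS, a call kept in all 8.

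Pnpla2, whose product makes the first cut of triacylglycerol, changed the least of the lipase genes. Its FPKM was 22.2, 16.6, 18.6 and 17.5 in the control group. It was 15.5, 12.47, 15.4 and 14.4 among PCOS libraries and 17.3, 16.0, 18.4 and 16.6 among PCOS-MV libraries. The PCOS libraries lay below all others. The fall of 0.35 (SE 0.107, adjusted p = 0.0396 by limma) in PCOS vs Control was lost in 6 of 8 fits with 1 library left out (all but those without Control replicate 2 or PCOS replicate 1; adjusted p up to 0.103). The difference of 0.23 (interval 0.04 to 0.42) in PCOS-MV vs PCOS was not called (adjusted p = 0.0794). Of all tested genes, 31.0% did not overlap in the first of these comparisons and 30.0% in the second, so that non-overlap alone was common here.

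Ratios within a library showed whether genes changed unequally, and 4 pairs were tested in 3 comparisons (12 exact two-sided permutation tests). In 7 of these exact permutation tests p was 0.0286, the smallest possible, with an adjusted p of 0.049. The adjusted value was set only by how many of the 12 tests reached the smallest p. Plin1 over Plin2, a ratio set by the pseudocount, supplied 2 of the 7. No ratio is therefore called by its adjusted value, and sizes are given with their SE. The log2 ratio of Mgll over Pnpla2 fell by 0.84 (SE 0.197) in PCOS vs Control, whereas it rose by 1.04 (SE 0.239) in PCOS-MV vs PCOS. Lipe over Pnpla2 rose by 0.55 (SE 0.0939) in PCOS-MV vs PCOS, and in PCOS vs Control its difference of -0.23 (SE 0.213, exact permutation p = 0.371) lay within the spread. G0s2, which encodes an inhibitor of the Pnpla2 product, measured 4.95, 4.51, 6.59 and 2.99 FPKM in the control libraries, 14.1, 18.9, 14.6 and 9.90 in the PCOS libraries and 6.62, 10.7, 3.90 and 7.85 in the PCOS-MV libraries. The log2 ratio of G0s2 over Pnpla2 rose by 1.77 (SE 0.286) in PCOS vs Control, whereas it fell by 1.16 (SE 0.373) in PCOS-MV vs PCOS.

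The ratio of Plin1 over Plin2 was set by the pseudocount of 1, as Plin1 was far below it in both treated groups. Its difference of -2.25 (SE 0.333) in PCOS-MV vs PCOS restates the rise of Plin2 by 2.26, with 0.01 for Plin1. PCOS-MV vs Control gave -1.92 (SE 0.470). Between PCOS and Control it gave 0.33 (SE 0.372, exact permutation p = 0.486), but -1.58 with a pseudocount of 0.1. Without a pseudocount, Plin1 reached 0.0055 to 0.0305 of the Plin2 level in the control libraries, 0.0011 to 0.0095 in the PCOS libraries and 0.0002 to 0.0013 in the PCOS-MV libraries, so that values of PCOS and PCOS-MV libraries overlapped.

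**Figure D5:**
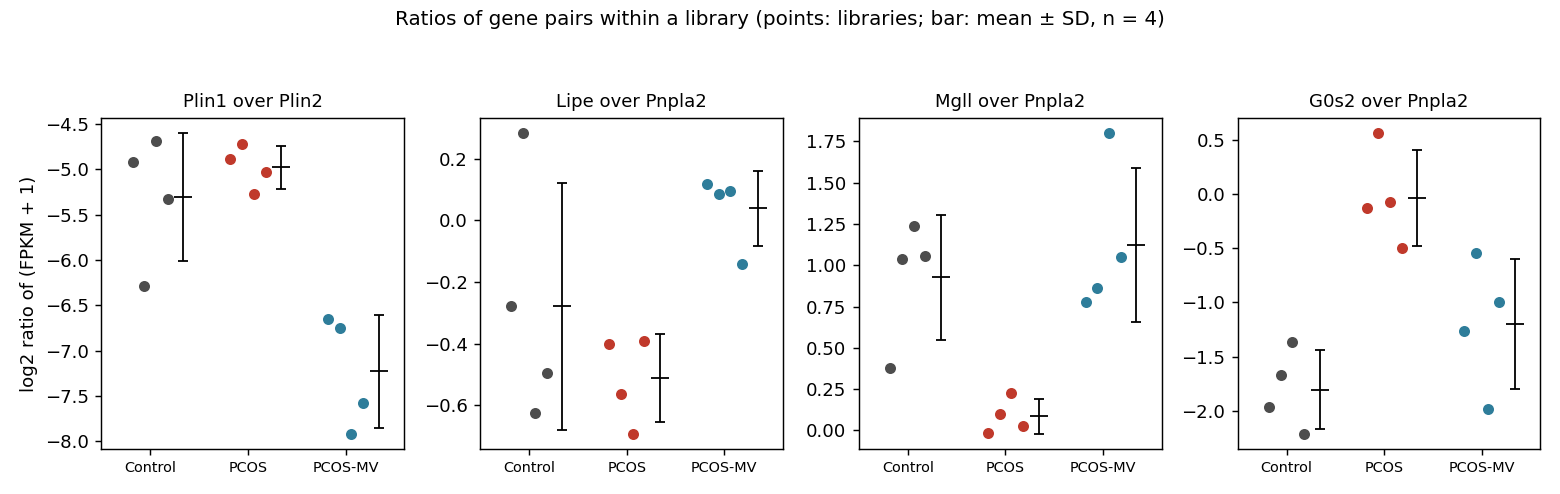
Log2 ratio of (FPKM + 1) between 2 genes of the same library (vertical axes) for 4 pairs, with the 4 libraries of each group as points and their mean and SD beside them. Mgll over Pnpla2 is lowest and G0s2 over Pnpla2 highest in the PCOS group, and Lipe over Pnpla2 is higher in all PCOS-MV libraries than in any PCOS library.

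Other genes of the droplet and of lipolysis were counted from lists written by function. Of 16 other lipid droplet genes, 12 were tested, and 2 rose and 4 fell in PCOS vs Control, while 4 rose and 2 fell in PCOS-MV vs PCOS. Limma thus called 6 of the 12 in each comparison, beside 27.4% and 25.7% of all tested genes. The median differences were only -0.08 and 0.06, beside -0.03 and 0.03 over all tested genes. Hilpda, which encodes another inhibitor of the Pnpla2 product and is induced by hypoxia, fell, from 10.6 to 13.1 FPKM in control libraries to 3.09 to 3.53 in PCOS libraries (-1.58, SE 0.084, adjusted p = 9.59e-06 by limma) and stood at 8.89 to 11.2 in PCOS-MV libraries (1.36 against PCOS, SE 0.0856, adjusted p = 5.97e-05). The inhibitor gene G0s2 thus moved in the opposite direction to the inhibitor gene Hilpda, with a rise of 1.42 (adjusted p = 0.00215) and a fall of 0.93 (adjusted p = 0.0362), the latter kept in only 2 of 8 fits with 1 library left out. Abhd5, the activator of the Pnpla2 product, was chosen after its values were seen; it fell by 0.48 (adjusted p = 0.00481) in PCOS vs Control, whereas it rose by 0.56 (adjusted p = 0.00477) in PCOS-MV vs PCOS. Lipa, the acid lipase of lysosomes, fell by 0.64 (adjusted p = 0.00288) and rose by 0.77 (adjusted p = 0.000803). Hsd17b11, a droplet-bound dehydrogenase, rose by 0.60 (adjusted p = 0.000299) and fell by 0.54 (adjusted p = 0.000915).

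Of 15 genes of triacylglycerol and steryl ester synthesis, 13 were tested, and 1 rose and 5 fell in PCOS vs Control, while 8 rose and 1 fell in PCOS-MV vs PCOS. The shares called were 46.2% and 69.2%, beside 27.4% and 25.7% of all tested genes. The median difference was -0.28 in the first comparison and 0.56 in the second. Gpam, which encodes the mitochondrial acyltransferase of the first step, was the 1 gene that rose and then fell, with means of 25.7 FPKM (Control), 53.4 (PCOS) and 35.1 (PCOS-MV) (1.02, adjusted p = 0.000168, and -0.59, adjusted p = 0.00536, by limma). Gpat3, which encodes an enzyme of the same step in the endoplasmic reticulum, had means of 4.33, 1.28 and 3.69 FPKM and moved in the opposite direction (-1.22, adjusted p = 0.000441, and 1.01, adjusted p = 0.00681, by limma). Lpin3, a phosphatidate phosphatase gene, had means of 20.3, 10.8 and 24.2 FPKM. Soat1, which encodes the enzyme that esterifies cholesterol, was chosen after its values were seen and had means of 234.1, 140.9 and 294.4 FPKM (-0.72, adjusted p = 0.00465, and 1.02, adjusted p = 0.00795, by limma).

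Of 12 genes of the hormone control of lipolysis, 9 were tested, and 1 rose and 3 fell in PCOS vs Control, while 2 rose and 2 fell in PCOS-MV vs PCOS. This was 44.4% of those tested in each comparison, beside 27.4% and 25.7% of all tested genes. Prkaca, a catalytic subunit gene of protein kinase A, fell by 0.62 (adjusted p = 0.0155 by limma) and rose by 1.10 (adjusted p = 0.00178). Prkar2b, a regulatory subunit gene of the same kinase, had means of 109.9, 277.7 and 111.6 FPKM and rose by 1.33 (adjusted p = 0.00408) and then fell by 1.34 (adjusted p = 0.00848). In PCOS-MV vs Control, limma called 0 genes of these 3 lists, but only 1 of all 13430 tested genes (0.00745%). At an unadjusted p under 0.05 it held 1 of the 12 droplet, 5 of the 13 synthesis and 0 of the 9 hormone control genes. Over all tested genes it held 1142. Gpam was 0.43 higher in the PCOS-MV than in the control group (interval 0.19 to 0.68, adjusted p = 0.466 by limma), without overlap.

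Markers of the ovary's own cell types also differed between the groups. Of 7 luteal cell markers, 6 were in the file and tested, and their summed FPKM was 4279 to 8015 in the control libraries, 1828 to 3467 in the PCOS libraries and 2961 to 6929 in the PCOS-MV libraries. In PCOS vs Control 4 of them fell, among them Star, the gene of the cholesterol carrier of steroid synthesis (-1.70, adjusted p = 0.00241 by limma). The 1 that rose was Lhcgr, with means of 59.0 FPKM (Control), 149.4 (PCOS) and 49.1 (PCOS-MV). In PCOS-MV vs PCOS 2 of the 6 rose, 1 fell and 3 were not called. The 3 theca and interstitial cell markers summed to 63.5 to 134.8 FPKM in the control libraries, 1626 to 3214 in the PCOS libraries and 23.4 to 141.8 in the PCOS-MV libraries, and all 3 rose and then fell. Of 7 granulosa cell markers, 4 rose in PCOS vs Control, whereas 3 fell in PCOS-MV vs PCOS, with sums of 613.6 to 851.9, 1070 to 1506 and 602.6 to 1061 FPKM. Inha (means 489.7, 806.5 and 548.2 FPKM) made up most of these sums. Amh (48.9, 28.0 and 41.1) and Nr5a2 (42.8, 23.0 and 38.7) had their lowest means in the PCOS group and were not called in either comparison. Of 6 macrophage markers, 2 rose in PCOS vs Control (33.3%, near the share of all genes), and 1 rose and 2 fell in PCOS-MV vs PCOS. Their sums were 194.0 to 271.6, 248.4 to 278.5 and 227.1 to 345.6 FPKM. Of 5 smooth muscle markers, limma called 0 in either comparison (at an unadjusted p under 0.05 also 0), with sums of 328.3 to 888.3, 450.2 to 572.9 and 324.1 to 664.9 FPKM. The lowest theca and interstitial sum, 23.4 FPKM in PCOS-MV replicate 2, was made up of 1.57 for Cyp17a1, 6.27 for Insl3 and 15.5 for Aldh1a1. The part of these cell types in the changes of Plin2, Plin3, Mgll, Lipe and Cidea was not tested.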

How the data were processed

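Ovarian RNA-seq libraries of 12 rats, 4 per group, were grouped by their titles and treatments in the labels. The authors filtered paired reads, aligned them, counted fragments per gene and deposited FPKM values. The study's methods name HISAT2 and featureCounts and the submitters' processing notes STAR 2.5.1b and HTSeq 0.6.0, so the aligner is unclear. The genome build is not given in the sources used here. Columns beginning with MG were read as the mogroside V group. The columns of the authors' own comparisons (fold changes and p-values) were not used. The table repeats a gene's FPKM on each of 26928 transcript lines, and 1 line per gene was kept (19730 genes). Nothing in the labels says whether same-numbered rats shared a litter or a day, and their deviations from the group means correlated between -0.05 and 0.22, so the numbers were not taken as pairs. No 2 libraries held identical values.

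The 13430 genes whose mean over the 12 libraries reached 1 FPKM entered the test. Their log2(FPKM + 1) values were fitted by lmFit and eBayes with trend (limma 3.58.1, R 4.3.3), on the 8 libraries of the 2 groups compared and with no covariate. P-values were adjusted by Benjamini-Hochberg over all 13430 genes, with a threshold of 0.05. Differences on this scale understate the change of genes with low FPKM. Single genes and ratios were compared by exact two-sided permutation tests. In 5 simulated sets of 13430 genes, 91.5% of 200 genes changed by 1.5 on the log2 scale were recovered in 4 against 4 libraries, and 5.25% of the calls were false. These sets had independent noise for each gene and no shift shared by genes of a library. Far fewer genes changed in them than the 27.4% called in PCOS vs Control. Among the tested members only Plin2 and Cidec changed by more than 1.5, so these rates do not carry over to the smaller changes. Tables were made with Python 3.11.15, pandas 2.3.3 and numpy 2.4.6, and plots with matplotlib 3.10.9.

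The 10 genes and all gene and marker lists were chosen with earlier results of these data known. The genes named were the 10 members, G0s2 and, of each list, at most the 3 with the smallest adjusted p in PCOS vs Control and the 3 in PCOS-MV vs PCOS, with Abhd5 and Soat1 added afterwards. The values of 1 gene that this rule names are not reported here. Alternatives covered the pseudocount (0.1), testing genes of any level, a joint model of the 12 libraries, libraries rescaled by their median ratio, the replicate block, a 2-fold threshold and each library left out. The fit without Control replicates 1 and 3 was chosen after seeing the data. Intervals rest on 4 libraries per group.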

Additional observations from a re-analysis of the deposited data

Results flagged for a closer look

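In each group of 4 libraries, the gap between the outermost value and its neighbour was compared with the range of the group (Dixon's test at 95%), for the 10 genes, G0s2 and 4 ratios in 3 groups. Of 45 groups 4 had such a library, where chance gives about 2.25. PCOS-MV replicate 3 had the lowest Plin3 of its group, 45.4 FPKM, and the highest Mgll, 66.4 FPKM. PCOS replicate 2 had the highest Cidec of its group, 0.407 FPKM. PCOS-MV replicate 4 had the lowest log2 ratio of Lipe over Pnpla2 of its group, -0.143. Without PCOS-MV replicate 3, Mgll still rose in PCOS-MV vs PCOS (limma), and the call of Plin3 was lost.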

How the results depend on the processing

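The call of Cidec in PCOS vs Control was kept under all alternatives run, but Cidec was tested only through its control values. Alternatives with the filter on low values keep this selection, so its calls under them add no support. Counts of genes lower in PCOS vs Control below include it. Calls of Plin2 and Mgll in PCOS vs Control, like those in PCOS-MV vs PCOS, were kept under all alternatives run. That of Lipe in PCOS-MV vs PCOS was kept under all but the 2-fold threshold. With this threshold, 436 genes were higher and 471 lower in PCOS vs Control (0 and 3 of the 10 genes described, the 3 being Plin2, Mgll and Cidec). In PCOS-MV vs PCOS, 360 were higher and 391 lower (0 of these 10 genes lower). Leaving out 1 library gave 3 to 5 of these genes lower in PCOS vs Control (3 without Control replicate 1 or PCOS replicate 3 or 4), 0 to 1 of them lower in PCOS-MV vs PCOS, 1272 to 1934 genes higher in PCOS-MV vs PCOS (1278 without PCOS replicate 2 and 1272 without PCOS replicate 4), and 1 to 2 genes higher and 0 to 2 lower in PCOS-MV vs Control. Without Control replicates 1 and 3, 3 of these genes were lower and Plin4 gave 0.0482 in PCOS vs Control, and against PCOS-MV Pnpla2 gave 0.0006 and Lipa -0.0055. The joint model of 12 libraries called 0 genes higher and 1 lower in PCOS-MV vs Control, and Cidea lost its call in PCOS vs Control (adjusted p = 0.0537 by limma). With the replicate block, 0 genes were higher in PCOS-MV vs Control, and 4 of the genes were lower in PCOS vs Control, since Cidea and Lipe lost their calls there (adjusted p = 0.0574 and 0.0740 by limma, over alternatives 0.000701 to 0.130 and 0.0235 to 0.124); the numbers are not known to pair the rats. Rescaling also left 4 of the genes lower (Pnpla2 and Lipe lost), and without the filter on low values Pnpla2 and Lipe lost their falls and G0s2 its fall in PCOS-MV vs PCOS. With a pseudocount of 0.1, Plin1 over Plin2 gave -1.58 in PCOS vs Control, and -3.71 for PCOS-MV against Control. Differences that were not called turned their sign with 1 library left out, with ranges in PCOS-MV vs Control of -0.0693 to 0.4351 (Cidea), -0.1845 to 0.1895 (Mgll) and -0.2357 to 0.1716 (Prkar2b), and of -0.0063 to 0.158 (Cidec) in PCOS-MV vs PCOS. The cause of these changes was not tested. Plin1, Plin5, Cidec and Cidea rest on few fragments, and 4 libraries against 4 cannot give an exact p below 0.0286.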
